A study of Mus musculus with 8 samples.

Results

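The 9 genes described here form the cGMP branch of intestinal ion transport: Prkg2, the membrane-bound cGMP-dependent protein kinase II, the peptide hormones Guca2a (guanylin) and Guca2b (uroguanylin), their receptor Gucy2c, the cGMP phosphodiesterase Pde5a, the chloride channel Cftr, and the exchangers Slc9a3, Slc26a3 and Slc26a6. They were taken as every non-control probe whose gene name in the scanner files was one of the 9 symbols, which gave all 9 genes of 30325 gene names on the array, through 14 of 39429 probes. Prkg2 had been chosen by its small p in the contrast of fasted with fed arrays, and the other 8 genes joined it for their place in the pathway. The fasted and fed values of Prkg2 are therefore given as a description, with no test.

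In the gut, guanylin and uroguanylin are secreted into the lumen and bind guanylyl cyclase C, the product of Gucy2c, which makes cGMP inside the epithelial cell. cGMP activates Prkg2, which phosphorylates Cftr and so opens chloride and bicarbonate secretion, and which restrains the sodium-hydrogen exchanger NHE3, the product of Slc9a3. The absorptive side of the same epithelium uses NHE3 with the chloride-bicarbonate exchangers of Slc26a3 (DRA) and Slc26a6 (PAT1), which sit on the brush border of enterocytes.

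Lower crypts of mouse jejunum were cut from fixed sections by laser capture, and their RNA was read on 8 single-colour Agilent arrays, 1 per mouse. All 8 mice were Lgr5EGFP-IRES-CreERT2/+ animals, which carry an EGFP and inducible Cre cassette in 1 copy of the stem cell gene Lgr5, were 4 to 6 weeks old, and were injected in the tail vein with etoposide, a drug that breaks DNA through topoisomerase II, at 80 mg/kg. The 4 mice of the fasted group had been without food for 24 h before the injection, the 4 mice of the fed group had been fed, and tissue was taken 3 h after it. By label, 2 mice of each group were male and 2 female. After the drug every cage held moistened food, so that fasting and eating again afterwards cannot be told apart. A mouse given no etoposide was not analysed here. Nothing in the labels says more of how mice were housed before the drug. With 1 array per mouse, p-values measure the spread between these mice together with that between their captures, arrays and slides.

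Between 53.3% and 65.9% of spots were well above background per array, with a mean of 61.3% ± 5.22 (SD, n = 4) on fasted and 58.6% ± 4.79 (SD, n = 4) on fed arrays. Fasted replicate 3 correlated with the other arrays at 0.827 to 0.925 across genes, and the lowest value, with fed replicate 4, was the lowest of all pairs of arrays. It was also alone on its slide and alone on the later scan day, and fed replicate 2 was alone on its slide. The array labelled female as fed replicate 4 lacked Xist signal above background and held the Y-linked Eif2s3y at -1.39, against -5.07 to -5.61 on the other arrays labelled female. Of the defining markers of the crypt base, Lgr5 stayed near background throughout, whereas Olfm4, Ascl2 and all 10 Paneth cell markers on the array were measured. The level of a gene is given throughout as log2 of the processed signal minus the array's own 75th percentile, so that 0 is the signal that 75% of probes lie below. Levels of different probes are not comparable with each other.

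Each gene was read through short probes of about 60 bases, and those below are shown to make plain which piece of each transcript the values come from. Positions are those of the scanner files in mouse build mm9, and as no mm9 annotation was used, exons and UTRs are not assigned. The probe for Gucy2c lies on the minus strand of chromosome 6 between 136646532 and 136648027, a span of 1496 bases for 60 bases of sequence, so that it crosses a splice junction. Probe 1 for Slc9a3, on chromosome 13 between 74300566 and 74301172, crosses a junction as well. The probe for Cftr lies on the plus strand of chromosome 6 from 18270974 to 18271033, and its capitals mark the last codons, which encode the tail that binds PDZ scaffold proteins, and the stop codon. For Guca2a, on the plus strand of chromosome 4 from 119311857 to 119311916, the 24 bases up to the stop codon are shown, with the codon of the last cysteine and the stop codon in capitals. For Slc26a6, probes 1 and 2 are shown because the files place them apart on chromosome 9, from 108814756 to 108814815 and from 108763641 to 108763700, under the same transcript.
Gucy2c: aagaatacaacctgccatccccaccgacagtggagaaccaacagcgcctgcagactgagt
Guca2a: tacgctgcctgtacgggaTGCTAG
Cftr: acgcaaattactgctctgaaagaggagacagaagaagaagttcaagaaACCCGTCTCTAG
Slc9a3 probe 1: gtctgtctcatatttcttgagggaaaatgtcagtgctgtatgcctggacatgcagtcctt
Slc26a6 probe 1: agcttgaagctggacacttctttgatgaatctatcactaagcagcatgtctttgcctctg
Slc26a6 probe 2: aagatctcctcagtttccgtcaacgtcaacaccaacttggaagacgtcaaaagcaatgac

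The comparison of fasted with fed mice asked how feeding state before the drug bears on crypts after it. Along the pathway, the hormones, their receptor and Cftr had nearly equal levels in both groups, while Prkg2 and the 3 exchangers had higher means in fasted crypts. Of the 9 genes 8 were measured, meaning that a probe of theirs stood well above background on 4 or more of the 8 arrays, and Pde5a was not. Of these 8, 7 had a higher mean in fasted crypts and 1 a lower mean, with a median log2 difference of 0.53 beside -0.06 over all 19534 genes tested. Prkg2, chosen by this contrast, is in that count and in that median, so nothing is read from them. Among the 7 other measured genes the middle difference was that of Guca2b, at 0.19. Of all genes, 44.5% lay above 0. In limma's test 0% of genes passed an adjusted p of 0.05, none of the 7 measured genes other than Prkg2 passed, with adjusted p from 0.788 to 0.939, and 1161 genes (5.94%) had an unadjusted p under 0.05.

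The ligands gave signal well above background on all arrays and did not separate the groups. Guca2a, the probe of which reads the end of guanylin, stood at 4.79, 4.95, 5.34 and 5.26 in fasted replicates 1 to 4 and at 5.09, 5.24, 5.53 and 5.12 in fed replicates 1 to 4. The ranges overlapped, and the difference was -0.16 (limma, SE 0.16, adjusted p = 0.81). The Guca2b probe, on the minus strand of the same chromosome from 119329250 to 119329309, gave 4.89, 5.22, 5.03 and 4.54 in fasted and 4.84, 4.90, 5.07 and 4.10 in fed replicates. Fed replicate 4 was the lowest of these 8 values and the groups overlapped, with a difference of 0.19 (SE 0.23, limma adjusted p = 0.838). The signs of these small differences were not stable: Guca2a was at 0.084 after quantile normalization and 0.028 in the authors' matrix, and Guca2b at -0.00090 without fed replicate 4.

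Gucy2c, the receptor of both hormones, had the narrowest spread of the 8 measured genes. Its levels were 3.05, 3.05, 2.95 and 3.00 in fasted and 2.93, 2.88, 2.86 and 2.91 in fed replicates. All fasted values lay above all fed values, but only by 0.02, and the difference of the means was 0.12, a 1.08-fold difference (limma, SE 0.14, adjusted p = 0.841). Its SD within groups was 0.05 in fasted and 0.03 in fed crypts (n = 4 each). limma's SE is moderated towards genes of similar level. On 3 slides an array of each group lay side by side, and within them Gucy2c differed by 0.12, 0.19 and 0.09. These pairs were not all matched for sex. Fasted replicate 2, labelled male, lay beside fed replicate 3, labelled female. Fasted replicate 4 lay beside fed replicate 4, the label of which its own signals contradict.

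Prkg2 was 3.02-fold higher in fasted than in fed crypts. It stood at 0.37, 0.26, 0.09 and 0.20 in fasted replicates 1 to 4 and at -1.37, -1.80, -1.14 and -1.14 in fed replicates 1 to 4. The lowest fasted array lay 1.24 above the highest fed array. The means were 0.23 ± 0.11 (SD, n = 4) for fasted and -1.36 ± 0.31 (SD, n = 4) for fed crypts, a difference of 1.60 with a limma SE of 0.24, and it had the smallest p of the 19534 genes. That rank is how the gene was chosen, so neither the rank nor the size of the difference beside its SE supports anything. Within the 3 shared slides the difference was 1.73, 1.41 and 1.35. In bulk captures fewer cells of a type and less RNA per cell cannot be told apart.

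Pde5a, which breaks cGMP down and is the target of sildenafil, was close to background in the captures. Its first probe, on chromosome 3 from 122478836 to 122478895, gave -4.47, -5.09, -4.59 and -4.35 in fasted and -4.36, -0.65, -4.90 and -4.34 in fed replicates. Only fed replicate 2 was well above background, so no fold is given, and the means were -4.62 and -3.56. The second probe, from 122558949 to 122559008, stayed near background throughout, fed replicate 2 at -5.37 included. Without a probe that passed the filter, Pde5a was not tested.

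Cftr, the apical chloride channel that Prkg2 acts on, was measured on all arrays and differed little. It gave 0.93, 1.11, 1.28 and 0.93 in fasted and 1.28, 1.09, 0.73 and 0.88 in fed replicates. The highest fasted and the highest fed value were alike, and the difference was 0.07 (limma, SE 0.20, adjusted p = 0.939). Its sign turned with the processing, to -0.0090 in the authors' matrix and -0.050 without fasted replicate 3.

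**Figure D1:**
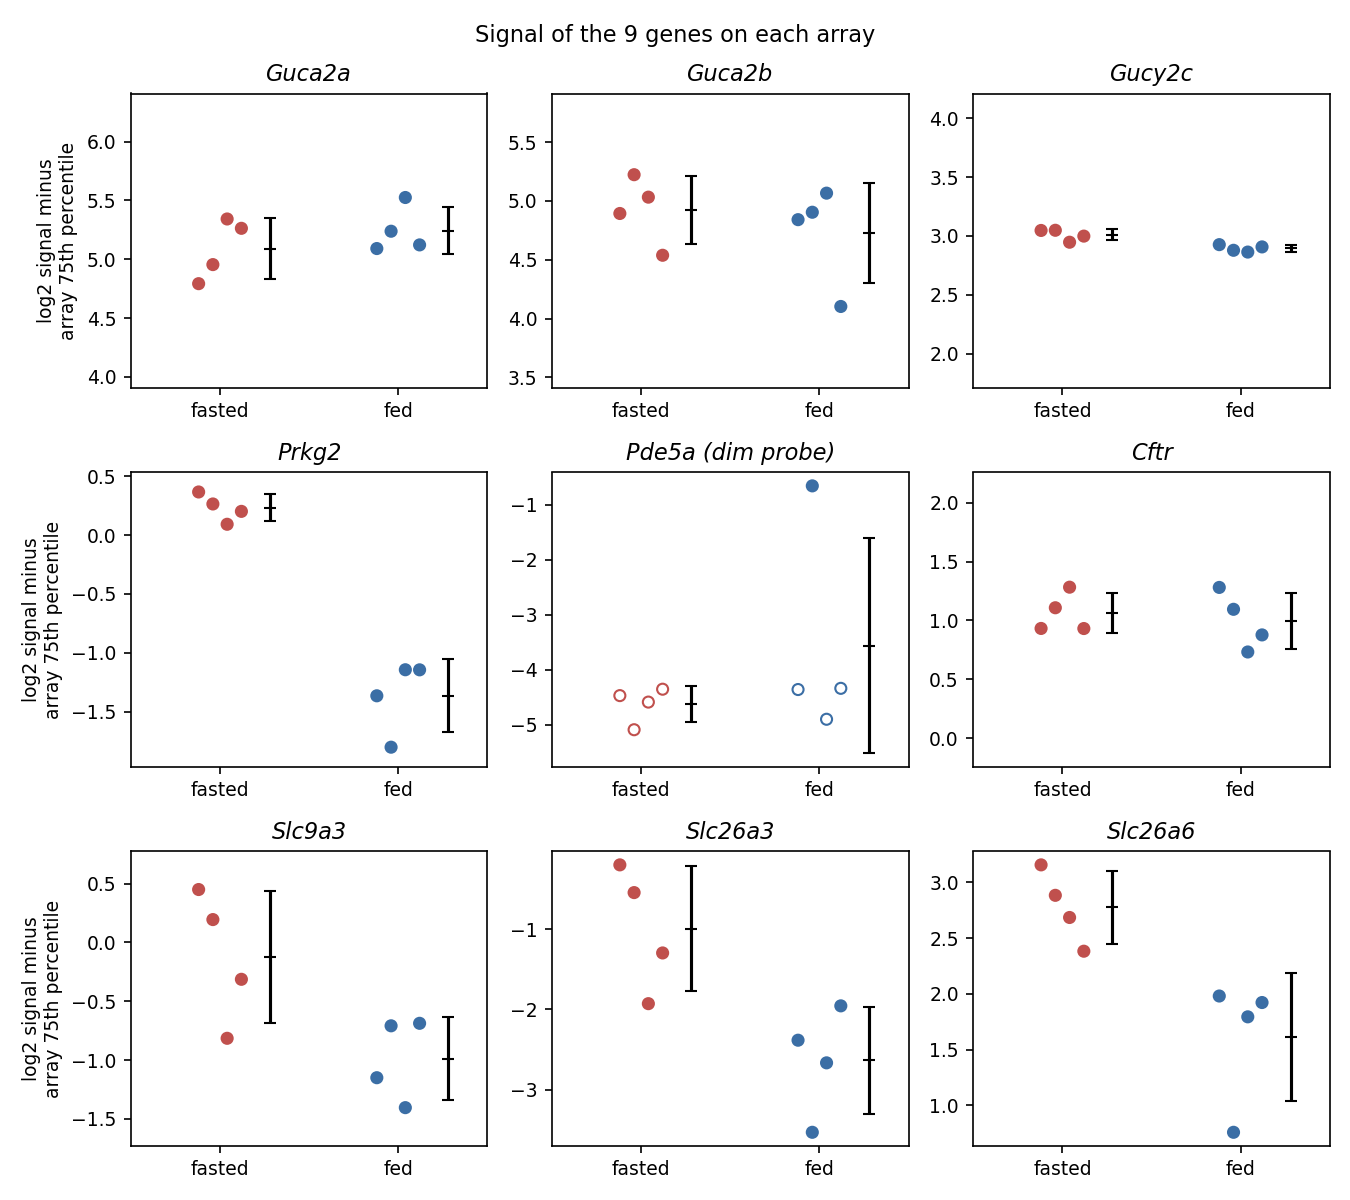
Each panel plots 1 gene: points are arrays in the order of replicates 1 to 4, the y axis is log2 signal minus the array's 75th percentile, and bars are the mean ± SD (n = 4). Every panel has its own y axis; open points for Pde5a were not well above background. The groups lie 1.24 apart for Prkg2 and overlap for Guca2a, Guca2b and Cftr.

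The exchangers of the absorptive side had higher means in fasted crypts, with wide spread between mice, and none passed limma's test. Slc9a3, the sodium-hydrogen exchanger NHE3, stood at 0.45, 0.19, -0.81 and -0.31 in fasted and -1.15, -0.71, -1.40 and -0.69 in fed replicates by its brighter probe 2, at 74306830 to 74306889 on chromosome 13, which the files tie to a cDNA clone. Fasted replicate 3 lay below 2 of the fed arrays, and the difference was 0.87 (limma, SE 0.30, adjusted p = 0.788). Probe 1, which crosses a junction, gave 0.35, -0.57, -0.31 and -0.79 in fasted and -1.64, -1.24, -1.91 and -1.03 in fed replicates. By that probe the groups did not overlap and the difference of the means was 1.12, so the probes disagree on whether the groups touch.

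Slc26a3, the chloride-bicarbonate exchanger DRA, had a difference in mean of 1.64 (limma, SE 0.49, adjusted p = 0.788). Its probe 1, on chromosome 12 from 32137633 to 32137692, gave -0.20, -0.55, -1.93 and -1.30 in fasted and -2.38, -3.53, -2.67 and -1.96 in fed replicates. Fed replicate 2 was not well above background there. The groups lay 0.03 apart, fasted replicate 3 being almost level with fed replicate 4. With normexp background correction the difference was 0.75. Probe 2, from 32158340 to 32158399, stood well above background in 3 fasted but 0 fed mice, with means of -2.28 and -4.78. With dim fed values raised to each array's lowest signal well above background, the fasted mean was 2.74-fold higher. That mean includes a fasted array that was itself not well above background, so the fold is not a strict lower bound. The groups overlapped by this probe, as fasted replicate 3 at -4.55 lay below fed replicate 4 at -3.82. Probe 2 failed the filter and was not tested.

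Slc26a6, the anion exchanger PAT1, was read by 3 probes that the files assign to the same transcript, and all 3 separated the groups. Why the files place probe 2 apart from probes 1 and 3 was not settled. The brightest, probe 3, on chromosome 9 from 108815322 to 108815380, gave 3.16, 2.88, 2.69 and 2.38 in fasted and 1.98, 0.76, 1.79 and 1.92 in fed replicates. Fed replicate 2 lay well below the other fed arrays, and the lowest fasted value was 0.40 above the highest fed value. The difference was 1.16, or 2.24-fold (limma, SE 0.32, adjusted p = 0.788). Probes 1 and 2, of the sequences shown above, differed by 1.36 and 1.49 with gaps of 0.39 and 0.21 between the groups.

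By the probe that stands for each gene, 4 of the 8 measured genes had all fasted arrays above all fed arrays: Prkg2, Gucy2c, Slc26a3 and Slc26a6. Over all genes with 8 values this held for 2.99%, and 1.98% had all fasted arrays below. The contrast is the one that chose Prkg2, so nothing is read from that count. Within the 3 shared slides every exchanger was higher in the fasted array, by 1.60, 1.60 and 0.37 for Slc9a3, 2.19, 2.12 and 0.66 for Slc26a3, and 1.18, 1.09 and 0.46 for Slc26a6. The smallest difference came each time from the slide of fasted replicate 4 and fed replicate 4. As said above, the pairs were not all matched for sex. With slide as a random block limma gave 0.94 for Slc9a3, 1.57 for Slc26a3 and 1.01 for Slc26a6, with adjusted p of 0.182, 0.15 and 0.148, and still called 0 genes.

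**Figure D2:**
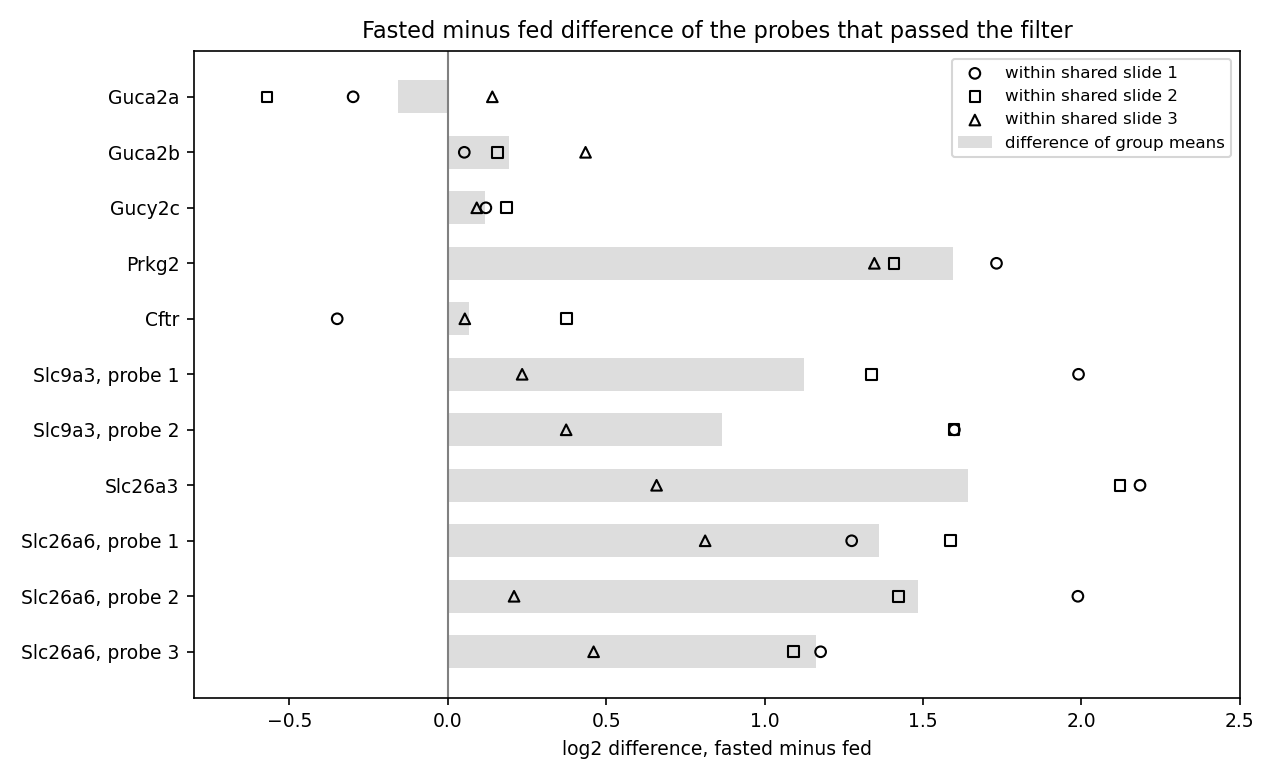
Grey bars give the difference of the group means, fasted minus fed, on the log2 scale for the 11 probes that passed the filter, and open symbols the same difference between the fasted and the fed array of a shared slide (3 slides). For each exchanger probe the triangle, from the slide of replicates 4, lies nearest 0, and Prkg2, which was chosen by these values, lies between 1.35 and 1.73.

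Markers of other cells were read on the same arrays. Of 20 markers of enterocytes, the absorptive cells above the crypt base, 19 were measured and all 19 were higher in fasted crypts, with a median log2 difference of 1.17, and 10 of them had all fasted arrays above all fed ones (2.99% of all genes did). Slc2a2 failed the filter. Their summed signal, in units of the array's 75th percentile signal, was 110.7 to 221.7 on fasted and 53.7 to 95.4 on fed arrays. Such a sum weighs the brightest probes most. All 10 measured Paneth cell markers had lower means in fasted crypts (median -0.46), with sums of 404.7 to 517.9 against 529.7 to 749.0. Of these 3 had all fasted arrays below all fed ones, as did 2 of 11 stem cell markers (1.98% of all genes did). Of stem cell markers 7 of 11 were higher (median 0.07), with sums of 46.0 to 52.0 and 48.5 to 76.2. Goblet cell markers were higher in 2 of 11 (median -0.20), with sums of 325.4 to 358.5 on fasted and 337.9 to 406.3 on fed arrays. Fibroblast, smooth muscle and endothelial markers were higher in 5 of 14 (median -0.11), with sums of 42.9 to 92.9 and 34.3 to 127.2. Leukocyte markers were higher in 2 of 8 (median -0.27), with sums of 154.8 to 229.5 and 220.4 to 279.8 that were mostly the signal of 1 gene, Itgam. No marker passed limma's adjusted threshold. The part of these cells in the differences of Prkg2 and the exchangers was not tested.

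The lowest enterocyte sum among fasted arrays was that of replicate 3, at 110.7, and the highest among fed arrays that of replicate 4, at 95.4, which are also the least alike arrays of the series. Without both arrays the median of the enterocyte markers was 1.42, the difference of Prkg2 1.72 and that of Slc26a3 2.18, each the highest among the alternatives. Slc9a3, at 1.20, was also at its highest, and Slc26a6, at 1.30, was not. Fasted replicate 3 had the lowest fasted level of Prkg2 and Slc26a3. Fed replicate 4 had the highest fed level of Slc26a3 and nearly that of Prkg2. Leaving both out therefore had to raise these differences, and nothing is read from the rise.

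**Figure D3:**
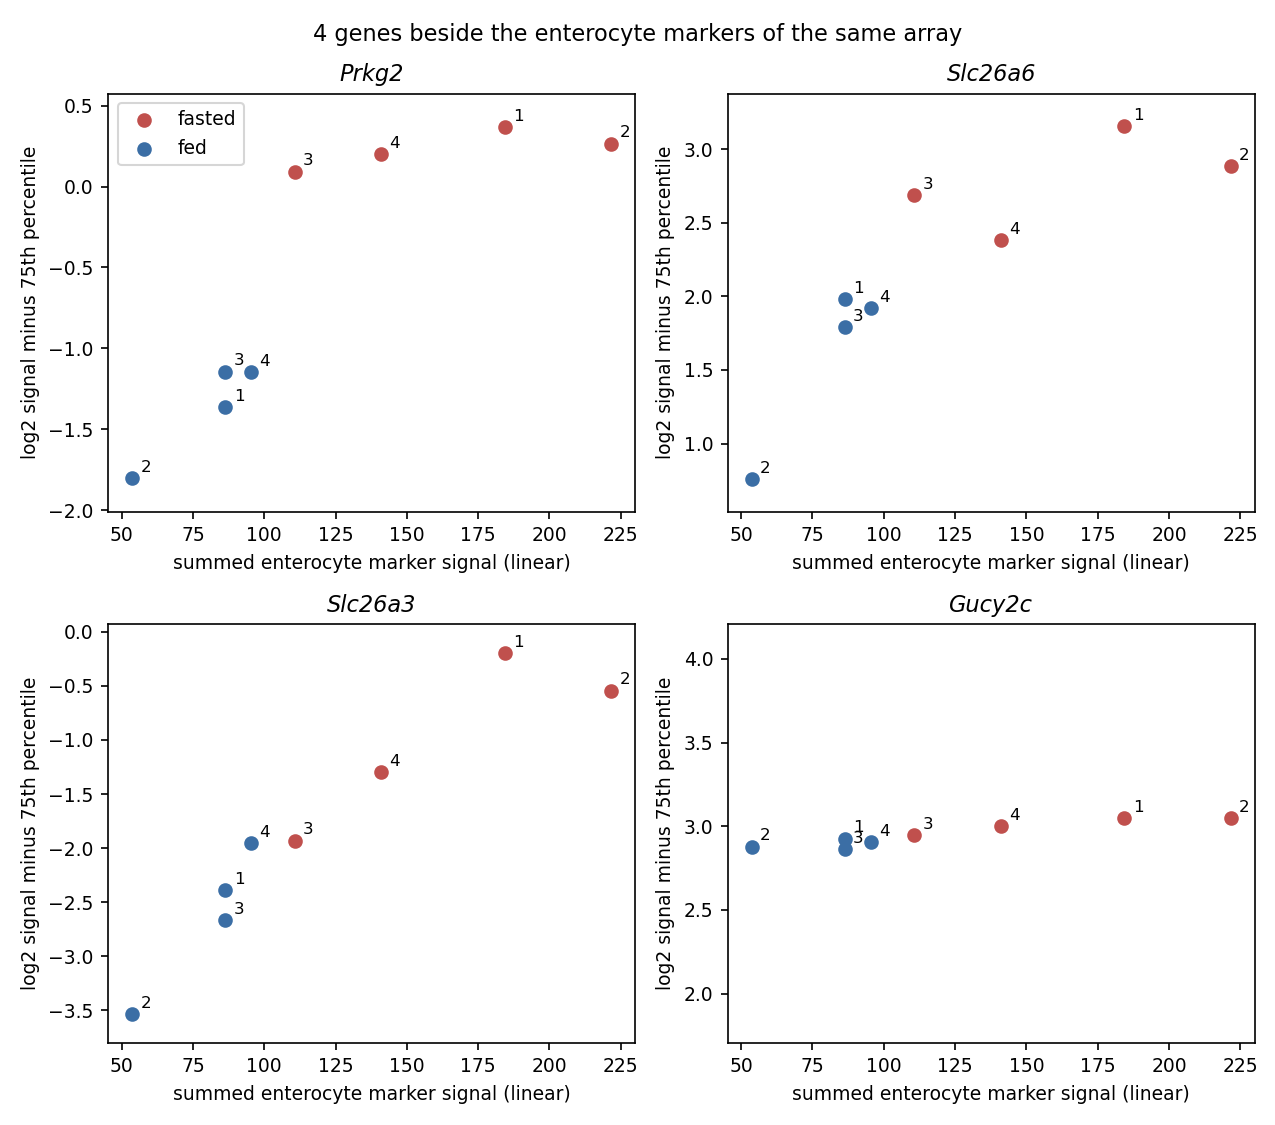
Points are arrays, labelled with their replicate number; the x axis is the summed linear signal of 19 enterocyte markers and the y axis the log2 level of 1 gene minus the array's 75th percentile. All fasted arrays (110.7 to 221.7) lie to the right of all fed arrays (53.7 to 95.4), and the levels run from -3.53 to -0.20 for Slc26a3, from 0.76 to 3.16 for Slc26a6, from -1.80 to 0.37 for Prkg2 and from 2.86 to 3.05 for Gucy2c. The 4 genes shown are those whose groups did not overlap, so both axes separate the groups in every panel. Slc9a3, Cftr, Guca2a and Guca2b, whose groups overlapped, are not shown.

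The other genes of the pathway, from 5 lists written with earlier results of these data known, did not move one way. Of 91 listed symbols, old and new names of some genes included, 71 were measured: 35 were higher in fasted crypts, 36 were lower, and the median was -0.03. In limma's test 0 of 71 passed, 6 had an unadjusted p under 0.05 (5.94% of all genes did), and 5 had all fasted arrays above all fed ones (2.99% of all genes). The 2 genes of each list with the smallest p are named here, and all 10 had an adjusted p of 0.788.

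Genes for other sources of cGMP, the natriuretic peptides, their receptors, soluble cyclases and nitric oxide synthases, had a lower fasted than fed mean in 8 of 9 measured (median -0.43). Gucy2d, a receptor guanylyl cyclase of sensory cells, had means of -1.73 ± 1.34 and -0.64 ± 0.29 (SD, n = 4 each), and its difference of -1.08 shrank to -0.35 without fasted replicate 3. Npr2, the receptor of C-type natriuretic peptide, differed by -0.56, by -0.27 without fasted replicate 3, by -0.35 without fasted replicate 1, by -0.37 without fed replicate 4 and by -0.88 without fasted replicate 4. The list median was -0.27 without fasted replicate 3, -0.28 without fed replicate 4 and -0.15 with slide as a random block. Of the 18 listed symbols, old and new names of some genes included, 9 failed the filter, and 6 of these were near background throughout.

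Among phosphodiesterases and exporters of cyclic nucleotides 7 of 16 were higher (median -0.21). Pde9a, a phosphodiesterase selective for cGMP, stood at -0.43 ± 0.61 (SD, n = 4) in fasted and -1.50 ± 0.52 (SD, n = 4) in fed crypts, and its groups did not overlap. Abcc5, an exporter of cyclic nucleotides, lay the other way at 0.22 ± 0.37 against 0.86 ± 0.20, also without overlap, and its difference of -0.64 was -0.30 with the mean of its probes. The list median turned to 0.07 without fasted replicate 3 and 0.06 with slide as a fixed block.

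Of kinase partners and scaffolds, 8 of 16 were higher (median -0.01). Pdzk1, a PDZ scaffold that holds NHE3, Cftr and Slc26 exchangers at the brush border, stood at -0.27 ± 0.49 (SD, n = 4) in fasted and -1.34 ± 0.16 (SD, n = 4) in fed crypts, and the groups did not overlap. Within the shared slides it differed by 1.42, 1.03 and 0.49. Slc9a3r1, the scaffold NHERF1, differed by 0.45 with overlapping groups, and by 0.24 without fasted replicate 3 and fed replicate 4.

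In chloride and bicarbonate secretion 9 of 14 genes were higher (median 0.21, 0.09 without fed replicate 2 and 0.10 without fasted replicate 1). Vipr1, the receptor through which vasoactive intestinal peptide raises cAMP, was at 0.81 ± 0.19 (SD, n = 4) in fasted and 0.14 ± 0.12 (SD, n = 4) in fed crypts, and its difference of 0.68 was 0.43 with normexp background correction. Within the shared slides it differed by 0.76, 0.61 and 0.75. Kcnq1, a basolateral potassium channel that sustains chloride exit, differed by 0.71 with overlapping groups, and by 0.46 with slide as a fixed block.

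In sodium, chloride and water absorption 10 of 16 genes were higher (median 0.10, 0.03 without fasted replicate 1 and -0.06 without fed replicate 2). Slc6a19, the sodium-coupled transporter of neutral amino acids, had means of -1.77 ± 1.08 and -4.61 ± 0.99 (SD, n = 4 each), but only 1 fed array was well above background. Its difference of 2.83 was 1.03 with normexp and 4.56 in the authors' matrix. Slc5a1, the sodium-glucose cotransporter SGLT1, differed by 0.83 with overlapping groups.

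**Figure D4:**
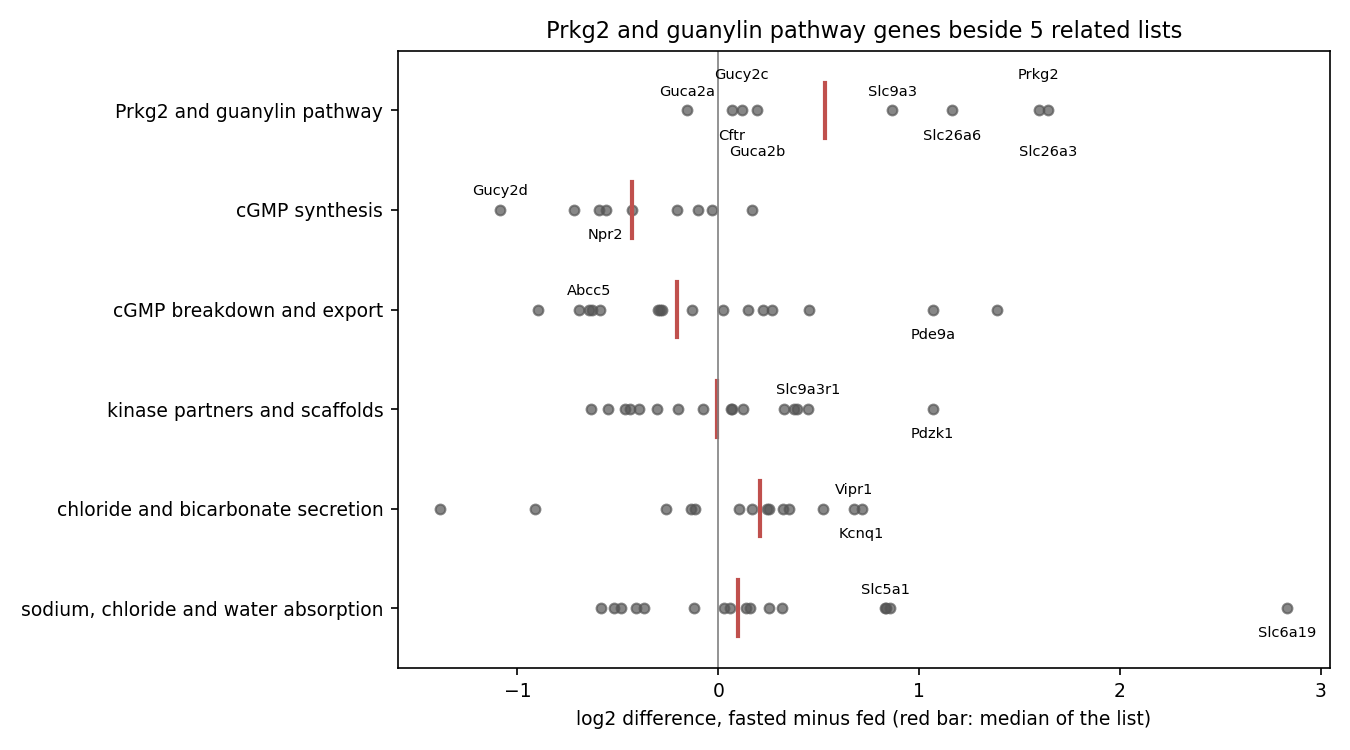
Each point is a gene, the x axis its log2 difference, fasted minus fed, and red bars are list medians. The top line holds the 8 measured genes of the Prkg2 and guanylin pathway (median 0.53), and the medians of the 5 other lists run from -0.43 to 0.21. The top median includes Prkg2, which was chosen by this contrast, so it is not comparable with the others. Among the 7 other genes of that line the middle difference is that of Guca2b, at 0.19.

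Names without the form of a gene symbol, such as those of clones, accessions and predicted genes, were left out of the next ranking. Among the rest, the genes whose levels over the 8 arrays were most like those of Prkg2 by Pearson's r were Sult2b1 (0.977), Cbfa2t2 (0.973), Slc7a9 (0.969), Fasn (0.965), Dgat2 (0.965) and Erlin2 (0.962). These 8 arrays hold both groups, all 6 genes separated the groups in the direction of Prkg2, and the values are a description. Sult2b1, a cholesterol sulfotransferase, stood at 2.39 to 2.69 on fasted and 1.24 to 1.98 on fed arrays. Slc7a9, a brush border amino acid transporter, is also among the enterocyte markers above. Cbfa2t2 was near background on all fed arrays, and Erlin2 was well above it on 2 of them. Among the pathway genes r with Prkg2 was 0.915 for Slc26a6, 0.888 for Slc26a3, 0.877 for Gucy2c and 0.719 for Slc9a3. In that order, 99.8%, 99.5%, 99.4% and 96.0% of all genes had a lower r. For Guca2b r was 0.22, for Cftr 0.04 and for Guca2a -0.39. These values too come from arrays of both groups, and r within a group was not computed.

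The labelled sexes are a contrast that did not choose the genes. None of the 8 measured genes passed for labelled male against labelled female (adjusted p of 1.00 for each), 0 had an unadjusted p under 0.05, and over all genes 0% passed and 2.27% had such a p. Prkg2 differed by -0.14 (SE 0.24), with means of -0.63 on arrays labelled male and -0.50 on those labelled female. In limma's test of the interaction of feeding with labelled sex none of the 8 genes passed, with adjusted p from 0.758 to 0.993, which does not show that the sexes were alike. The 1 gene with an unadjusted p under 0.05 was Slc26a3, with an interaction of 1.89 (SE 0.78), where 3.21% of all genes had such a p and 0% passed. These values carry the contradicted label of fed replicate 4.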

How the data were processed

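Each of 8 arrays holds RNA of 1 mouse. Per the file headers, the deposited spot intensities are processed signals, background-subtracted and detrended, from version 11.5.1.1 of Agilent Feature Extraction. The authors' deposited matrix of log2 values ranks probes like the processed signal (Spearman correlation of at least 0.9999), with medians of 7.73 to 8.33 per column. Its scaling and centring are not given in the sources used here.

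Of 44397 spots the 43020 that are no controls were used, less outlier spots, spots of a probe were averaged on the log2 scale, and the array's 75th percentile was subtracted. No spot was saturated. The sequence and position of the Prkg2 probe are not reported here. Of the probes 27655 were named by accession in RefSeq's table of GRCm38.p6 and 11774 kept the files' names. A gene was represented by its brightest probe among those measured on 4 or more of the 8 arrays. limma 3.58.1 in R 4.3.3 (lmFit, eBayes with a mean trend) tested group with labelled sex as a term, 2-sided, with Benjamini-Hochberg adjustment over all genes at 0.05, and was tested on simulated data. The sex term took the labels as given, so the fasted against fed fit also carries the contradicted label of fed replicate 4. Without a sex term that fit called 0 genes as well. For the fold of Slc26a3 probe 2, each fed value was raised to the array's lowest signal well above background where it lay under it. The mean of these was set against the mean of all fasted arrays. Alternatives changed the scaling, background correction, filter, probe rule, variance trend, sex term, slide and replicate blocks, and left out each array. The genes and lists were chosen with earlier results of these data known. The genes named are the 9, the 2 of smallest p per list and the 6 most like Prkg2 among names with the form of a gene symbol. Leaving out fasted replicate 3 and fed replicate 4 together was added after the data were seen. Replicate numbers do not pair the mice: same-numbered arrays deviated together with correlations of 0.372, -0.469, -0.446 and 0.606, the positive ones being pairs on 1 slide. All 3 pairs that shared a slide deviated together (0.372, 0.536 and 0.606, consensus correlation 0.610). The number of arrays limits the precision.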

Additional observations from a re-analysis of the deposited data

Results flagged for a closer look

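In the fed group the first Pde5a probe stood at -0.65 in fed replicate 2, where the next highest fed array was at -4.34, a gap of 0.867 of the group's range. Slc26a6 probe 3 stood at 0.76 in fed replicate 2, where the nearest fed array was at 1.79, a gap of 0.847 of the range. By Dixon's critical value for 4 samples 2 of 28 groups of 4 arrays held such a value, where chance gives about 1 in 20. That array also had the lowest enterocyte marker sum, at 53.7. The part of that array in these values was not tested beyond leaving it out: without it Slc26a6 differed by 0.82 between the groups.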

How the results depend on the processing

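Over 21 alternatives each, no alternative called a gene for fasted against fed, and Prkg2 ranged from 1.1, with normexp, to 1.72. Slc9a3 ranged from 0.62 to 1.20, Slc26a6 from 0.82 to 1.34 and, over 20, Slc26a3 from 0.75 to 2.18. The replicate block called 0 genes (smallest adjusted p 0.752) and slide as a fixed block 0 (0.114, 2558 genes with an unadjusted p under 0.05). Directions turned for Guca2a with quantile normalization (0.084) and in the authors' matrix (0.028), and for Guca2b without fed replicate 4 (-0.00090) and without both fasted replicate 3 and fed replicate 4 (-0.052), with 0.38 its highest value when 1 array was left out. Cftr turned in the authors' matrix (-0.0090), with slide as a random block (-0.0094), without fed replicate 3 (-0.0087), without fasted replicate 3 (-0.050) and without both arrays (-0.045), with 0.15 its highest value when 1 array was left out. The cause was not tested. Leaving out 1 array gave 0 to 5 genes for labelled sex, the 5 without fasted replicate 3, and 0 to 2226 for the interaction, the 2226 without fasted replicate 4 and 1 without fed replicate 2. Each of these fits leaves 1 array alone in its group and labelled sex, assumed to vary like the rest. Median scaling moved the median interaction of all genes from 0.04 to -0.43. The median of the 8 measured genes was 0.19 when only probes well above background on all arrays were used, which drops Slc26a3. Dim signal limits Pde5a, Slc26a3 and Slc6a19.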
